A study of Homo sapiens with 4 samples.

Results

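Translation initiation and elongation factors are the proteins that load messenger RNA onto ribosomes and move ribosomes along it. The set was defined by gene name: protein-coding genes of GENCODE release 29 whose symbol begins with EIF1 to EIF6 or with EEF1 or EEF2, leaving out the EIF2AK kinases, EIF1AY and the EEF1AKMT methyltransferases. The rule took 61 of the 58735 genes in the files, 51 initiation (EIF) and 10 elongation (EEF) genes, and used no measured value. Counts were measured by RNA sequencing in A549, a human lung adenocarcinoma line whose labels call it alveolar basal epithelial. The shRALY group, labelled RALY knockdown, was infected with an shRALY lentivirus (a short hairpin RNA against RALY, an hnRNP protein that binds RNA) and gave 2 libraries. The shControl group, labelled WT, was infected with a control lentivirus and gave 2 libraries. All 4 libraries came from infected cells of 1 line at day 2. The labels say neither how many hairpin sequences were used nor whether replicates were separate cultures. The p-values therefore measure the spread between these libraries, which may be technical. In bulk RNA, fewer cells with an mRNA and less of it per cell cannot be told apart.

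Initiation in human cells begins when eIF2 brings the initiator methionyl-tRNA to the small ribosomal subunit together with eIF1, eIF1A, eIF3 and eIF5. The eIF4 proteins bind the mRNA cap and unwind the leader, eIF5B joins the large subunit, and eIF6 keeps free large subunits apart from small ones. In elongation eEF1A delivers each aminoacyl-tRNA, the eEF1B complex recharges eEF1A with GTP, eEF2 moves the ribosome by a codon and eIF5A helps at sites where it stalls. Many of these mRNAs are known for a terminal oligopyrimidine (TOP) start, a cytosine followed by a run of pyrimidines at the cap, which couples their translation to mTORC1 signalling.

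Total counts were 18632787 and 16823605 in the shRALY libraries and 17587717 and 16745818 in the shControl libraries. RALY itself stood at 40.9 and 41.5 CPM (count shares on a per-million scale with TMM scaling) in shRALY, against 123 and 133 CPM in shControl, at log2 -1.64 (SE 0.11; edgeR adjusted p = 5.85e-11). The 6 epithelial markers summed to 9292 to 9397 CPM in shRALY and 8162 to 8889 CPM in shControl, most of it from keratin genes, with EPCAM at 2.29 to 3.54 CPM over the 4 libraries. The alveolar type II markers, at a sum of 0.856 to 1.90 CPM in shRALY and 1.41 to 1.68 CPM in shControl, were nearly absent. Immune markers summed to 5.26 to 8.43 CPM in shRALY and 6.64 to 8.10 CPM in shControl, with CD3E and LYZ at 0 counts in every library. Fibroblast markers summed to 14.0 to 16.5 CPM in shRALY and 18.4 to 18.9 CPM in shControl, and endothelial markers to 0.0544 to 0.183 CPM in shRALY and 0.503 to 0.822 CPM in shControl, with KDR at 0.

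No translation factor changed by 2-fold or more, and the largest change in each direction was that of EIF3L, at 1.77-fold lower, and EEF1A2, at 1.48-fold higher. Of the 61 genes, 57 had enough counts to be tested, 5 were higher in shRALY and 12 were lower at an edgeR adjusted p under 0.05 over all genes tested, and 40 did not pass. That is 29.8% of the tested factors, against 41.0% of all 15912 tested genes and 45.4% of the 13161 protein-coding ones. The genome-wide shares were 20.6% for higher and 20.4% for lower. The number of factors changed by at least 2-fold was 0 by edgeR, 0 by DESeq2 and 0 at an unadjusted edgeR p under 0.05, against 13.6% of all tested genes by edgeR. The log2 fold changes of the factors ran between -0.82 (EIF3L) and 0.56 (EEF1A2), with a median of -0.12, against a median of -0.01 over all tested genes. The median size of the change, without its sign, was 0.20 for the factors, 0.38 for all tested genes and 0.37 for the protein-coding ones. By type, 4 initiation genes were higher and 11 lower of 49 tested, and 1 elongation gene was higher and 1 lower of 8 tested. In 43 of the 57 tested factors the shRALY libraries lay on one side of both shControl libraries, against 69.7% of all tested genes.

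The number of calls moved with the libraries in the fit, for the factors as for all genes. A fit with 1 library left out takes its spread from the pair that stays whole. The shControl pair was the noisier, at a chi-square per gene of 10.6 between replicates, against 4.59 for the shRALY pair. How far this difference in noise shaped the calls lost or gained was not tested. Without shRALY replicate 1 there were 3 higher and 6 lower factors, without shRALY replicate 2 there were 3 and 5, and without shControl replicate 1 there were 10 and 16. Without shControl replicate 2 there were 6 higher and 19 lower factors. Over all genes there were 2260 higher and 1897 lower without shRALY replicate 1, and 2040 and 1980 without shRALY replicate 2, against 3274 and 3245 with all 4 libraries. The 6 factors that passed in every setting tried were EIF3L, EIF4H, EIF4EBP2 and EIF3E, which were lower, and EEF1A2 and EIF1, which were higher.

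**Figure D1:**
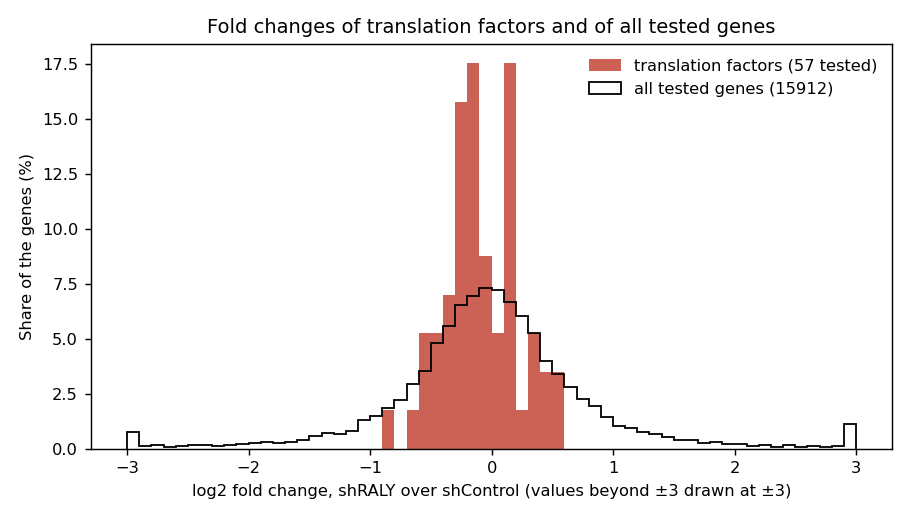
Distribution of log2 fold changes (shRALY over shControl, horizontal axis, bins of equal width) as a share of genes (vertical axis, %) for the 57 tested translation factors (filled) and all 15912 tested genes (outline). The factors lie between -0.82 and 0.56, while all genes spread beyond -3 and 3, where the outermost values are drawn in the end bins.

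The factors together took a smaller share of reads in shRALY. They held 1.64% and 1.58% of all counts in the shRALY libraries, against 1.91% and 1.85% in the shControl libraries, and the groups did not overlap. EEF1A1 alone supplied 36% and 34.3% of the factors' counts in shRALY and 38.1% and 37% in shControl. On a scale per length (TPM, over merged exons), the most abundant factors over the 4 libraries were EEF1A1 at a mean of 3540 TPM, EEF2 at 1272 TPM, EIF5A at 637 TPM, EIF4G2 at 566 TPM, EEF1B2 at 543 TPM, EIF1 at 400.2 TPM, EIF4H at 381 TPM and EIF3I at 362 TPM. Of these 8, EIF1 was higher, EEF1A1, EIF5A, EIF4G2 and EIF4H were lower, and EEF2, EEF1B2 and EIF3I did not pass. The shares and the ranking use the deposited counts. These put EEF1G at 0 and EIF4A1 at a mean of 3.65 TPM, 2 levels that are uncertain, as set out below.

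For some factors the deposited counts do not measure the gene as a whole. EEF1G, a subunit of the eEF1B complex, had 0 counts in every library, and 99.9% of its exonic bases are shared with the same-strand gene AP002990.1, which itself had 23 and 21 counts in shRALY and 38 and 23 in shControl. EIF4A1, the main cap-dependent helicase, had 131 and 106 counts in shRALY and 102 and 75 in shControl. All of its 50-base words (100%) also occur in transcripts of other genes, and 48.6% of its exonic bases are shared with same-strand genes including the read-through SENP3-EIF4A1. How reads in such shared stretches were assigned is not given in the sources used here, so the levels of EEF1G and EIF4A1 are uncertain. The read-through EEF1E1-BLOC1S5 also had 0 counts throughout, shares 100% of its exonic bases with same-strand genes, and is uncertain in the same way. EIF4E1B had 0 counts too, for which the limit of 3 counts comes to 0.161 to 0.179 CPM per library (counting error only). EIF4EBP3 had 0 to 3 counts. It shares 73.4% of its exonic bases with the same-strand read-through ANKHD1-EIF4EBP3, so its level is uncertain as well.

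The near-identical genes EIF3C and EIF3CL share 50.3% and 98.7% of their words with each other, and how reads were assigned between them is unknown. EIF3C had 730 and 194 counts in the 2 shRALY libraries, against 486 and 362 in shControl, and EIF3CL had 68 and 200 in shRALY, against 110 and 103 in shControl. Neither passed (log2 0.10 and 0.37; edgeR adjusted p = 0.941 and 0.646), and the value rests on which shRALY library is kept. EIF3C was at log2 -1.02 with shRALY replicate 1 left out (edgeR adjusted p = 0.000299) and at 0.72 with shRALY replicate 2 left out (edgeR adjusted p = 0.00353). EIF3CL was at 1.01 (edgeR adjusted p = 0.00206) and -0.71 (edgeR adjusted p = 0.119) in the same fits. Summed, the 2 genes had 798 and 394 counts in shRALY, against 596 and 465 in shControl, so the shRALY libraries stayed apart. With the copies summed in the fit, a setting chosen after seeing the data, the log2 fold change was 0.16 (edgeR adjusted p = 0.614).

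**Figure D2:**
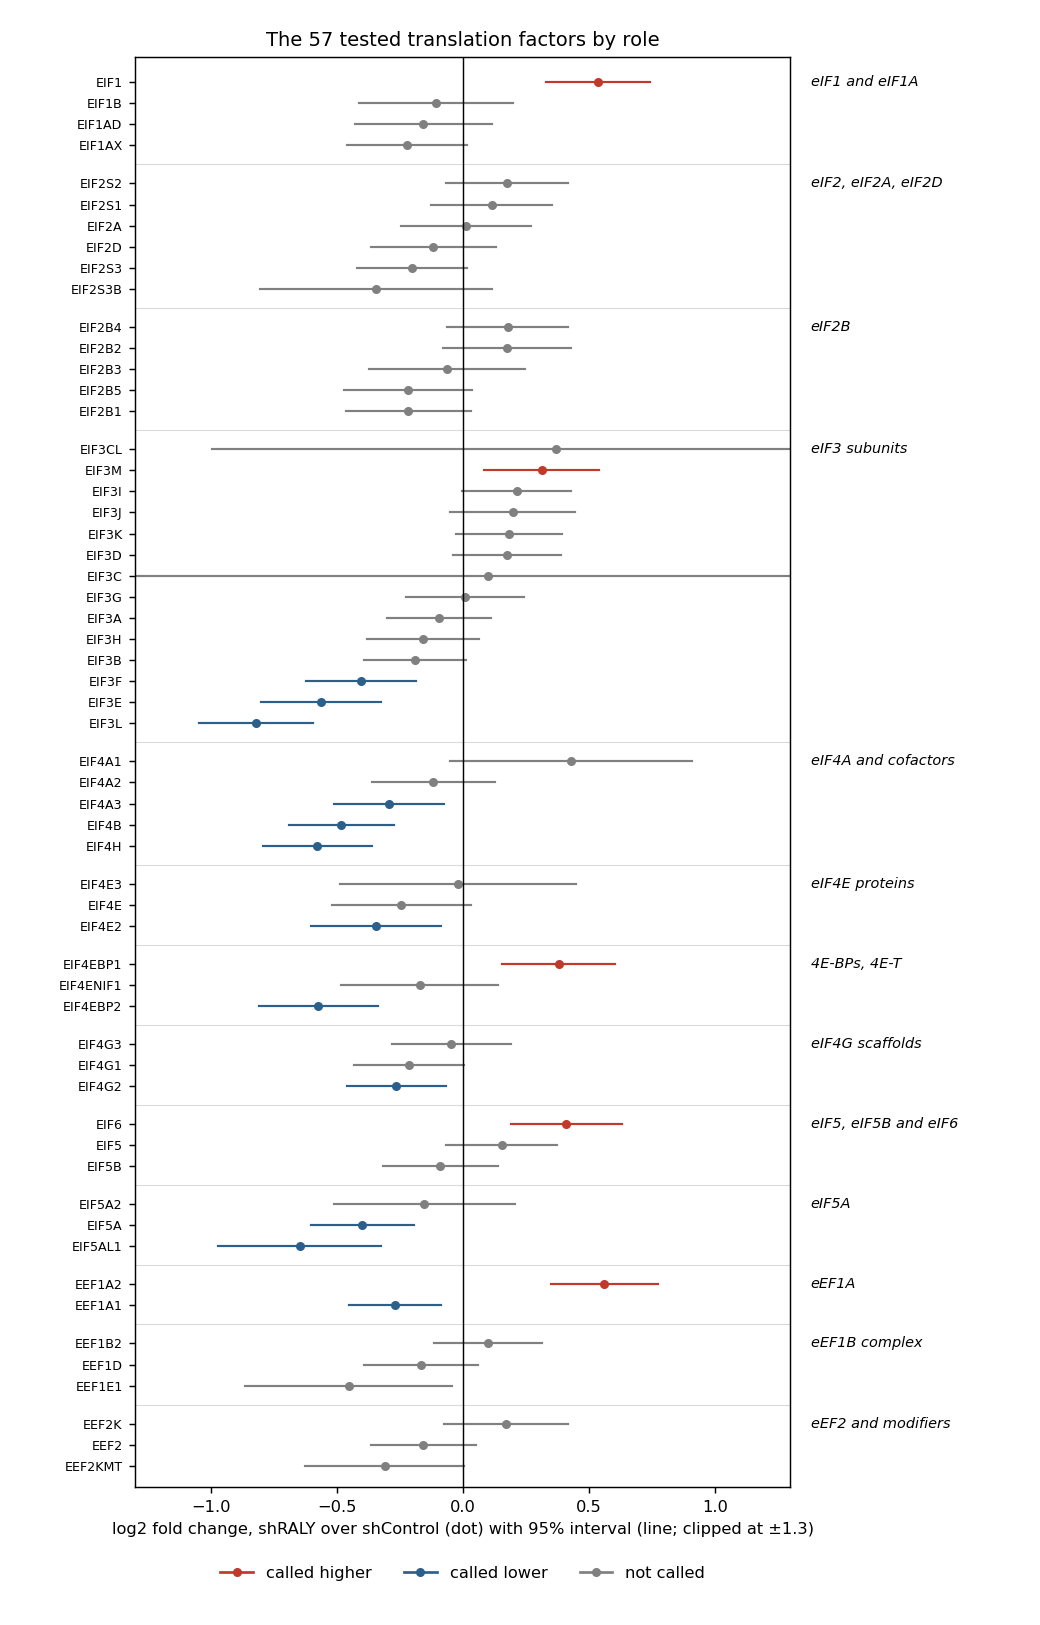
The log2 fold change (shRALY over shControl, dot) of each of the 57 tested factors with its 95% interval (line, from the edgeR fit over 2 libraries a group), grouped by role. The intervals of the 17 called factors, in colour, exclude 0, and the widest, of EIF3C and EIF3CL, run past the axis.

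Among the factors that find the start codon, EIF1 rose and the others of its group did not pass. EIF1, which keeps the scanning ribosome open until a good start codon is reached, stood at 523 and 526 CPM in shRALY, against 373 and 350.0 CPM in shControl. The groups were well apart, at log2 0.54 (SE 0.10; edgeR adjusted p = 0.000142). Its paralog EIF1B stood at 18.7 and 19.3 CPM in shRALY and 21.1 and 19.8 CPM in shControl (log2 -0.11; edgeR adjusted p = 0.601). Per length, EIF1B was at 0.0678 and 0.0694 of the EIF1 level in shRALY and at 0.107 in both shControl libraries. EIF1AX, one of the genes for eIF1A, had a log2 fold change of -0.22 and passed only without shControl replicate 2 (edgeR adjusted p = 0.000833 at log2 -0.35). EIF1AD did not pass, at -0.16. EIF5, the GTPase-activating partner of eIF2 that acts opposite to eIF1 at the start codon, stood at 368 and 375 CPM in shRALY and 363 and 305 CPM in shControl (log2 0.15; edgeR adjusted p = 0.264). Without shControl replicate 1, EIF5 passed (edgeR adjusted p = 0.00604 at log2 0.28).

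No gene of eIF2, of the alternative tRNA carriers or of the exchange factor eIF2B passed the test with all 4 libraries. The count was 0 of 11 genes by edgeR, against 41.0% of all tested genes. It was also 0 by DESeq2 and 0 at an unadjusted edgeR p under 0.05. Over the 6 genes of eIF2 and the alternative tRNA carriers, log2 fold changes lay between -0.35 (EIF2S3B) and 0.17 (EIF2S2), with a median of -0.05. EIF2S1, the alpha subunit that stress kinases phosphorylate, stood at 160.1 and 159.7 CPM in shRALY and 165 and 131 CPM in shControl, with a 95% interval of the log2 fold change between -0.13 and 0.35. EIF2S2, the beta subunit, stood at 160.2 and 160.3 CPM in shRALY and 160 and 124 CPM in shControl. Its gene lies beside RALY: on chromosome 20 (GRCh38) EIF2S2 spans 34088298 to 34112332 on the minus strand and RALY spans 33993646 to 34108308 on the plus strand. The spans of the 2 genes overlap while their exons share no bases, and the log2 fold change of EIF2S2 was 0.17 (95% interval -0.07 to 0.42), against -1.64 for RALY. EIF2S3, the gamma subunit, was at -0.20, and its copy EIF2S3B at -0.35. The noncanonical carriers EIF2A and EIF2D were at 0.01 and -0.12. The shControl libraries differed here: without shControl replicate 1, EIF2S1 (log2 0.29), EIF2S2 (0.36) and EIF2A (0.23) passed, and without shControl replicate 2, EIF2S3 passed (-0.29). EIF2S2, EIF2S3 and EIF2S3B share 22.6%, 23.2% and 25.5% of their words with other genes, so their counts are uncertain.

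The 5 eIF2B genes, whose complex reloads eIF2 with GTP and is blocked by phosphorylated eIF2, lay between -0.22 and 0.18. EIF2B4 and EIF2B2 were at 0.18 each, EIF2B3 at -0.06, and EIF2B5 and EIF2B1 at -0.22 each. Their 95% intervals ran from -0.47 at the lowest to 0.43 at the highest. EIF2B1 passed without shControl replicate 2 (log2 -0.31) and EIF2B5 without shControl replicate 1 (log2 -0.29). EIF2B2 overlaps opposite-strand genes over 23.6% of its exonic bases.

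The subunits of eIF3, the scaffold that holds the small subunit and the mRNA together, mostly did not pass. Of 14 tested genes 3 were lower, 1 was higher and 10 did not pass, 28.6% called against 41.0% of all tested genes, with a median log2 fold change of 0.05. EIF3L stood at 68.5 and 71.4 CPM in shRALY, against 127 and 120.1 CPM in shControl. The change, 1.77-fold lower at log2 -0.82 (SE 0.11; edgeR adjusted p = 2.2e-06), was the largest among the 57 factors. The same-strand gene AL022311.1 covers 41.1% of the exonic bases of EIF3L and 47.3% of its words occur elsewhere, so its count is uncertain. EIF3E was at 173 and 159 CPM in shRALY, against 273 and 217 CPM in shControl (log2 -0.56, SE 0.12; edgeR adjusted p = 0.000419). EIF3F was at 143 and 129 CPM in shRALY, against 180.2 and 180.6 CPM in shControl (log2 -0.40, SE 0.11; edgeR adjusted p = 0.00388). The EIF3F call was lost without shRALY replicate 1 (edgeR adjusted p = 0.0565 at log2 -0.47) and without replicate 2 (edgeR adjusted p = 0.232 at log2 -0.32).

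EIF3M was the only eIF3 gene called higher, at 210.2 and 189 CPM in shRALY and 172 and 149 CPM in shControl (log2 0.31, SE 0.11; edgeR adjusted p = 0.026). It did not pass without shRALY replicate 1 (edgeR adjusted p = 0.387 at log2 0.24), without shRALY replicate 2 (edgeR adjusted p = 0.107 at log2 0.40) or when scaled by library size alone (edgeR adjusted p = 0.0653 at log2 0.26). EIF3I was at 214 and 193 CPM in shRALY and 175 and 177 CPM in shControl, without overlap (log2 0.21; edgeR adjusted p = 0.109). Below the threshold, EIF3I, EIF3J, EIF3K and EIF3D lay at 0.17 to 0.21, EIF3G at 0.01, EIF3A, which spans the complex, at -0.09, EIF3H at -0.16 and EIF3B at -0.19. Without shControl replicate 1, EIF3J (log2 0.36) and EIF3B (-0.21) passed, and without shControl replicate 2, EIF3I (0.24) and EIF3H (-0.22) passed. EIF3B also passed when scaled by library size alone (-0.25). EIF3K and EIF3L sit side by side in the complex, and EIF3D attaches through EIF3E. Per length, EIF3L was at 0.144 and 0.162 of EIF3K in shRALY, against 0.313 and 0.298 in shControl. EIF3E was at 0.72 and 0.661 of EIF3D in shRALY, against 1.26 and 1.04 in shControl. Neither ratio overlapped between groups. Both pairs were chosen after their values were seen, and the ratios were not tested.

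**Figure D3:**
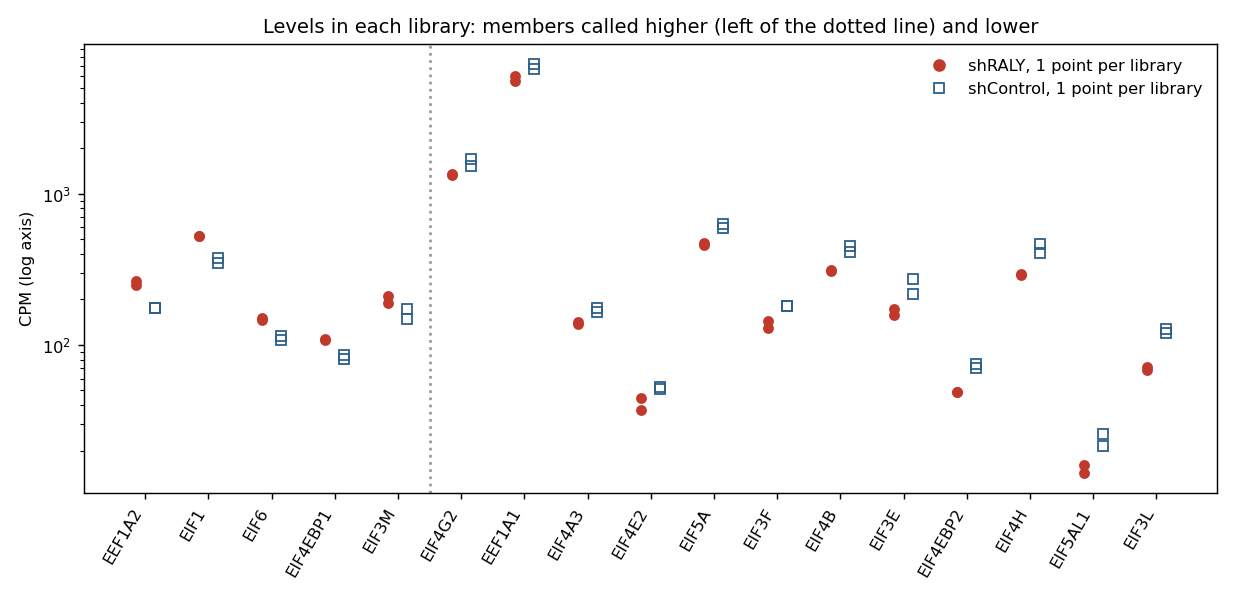
CPM (log axis) in each library for the 5 factors called higher (left) and the 12 called lower (right), with filled circles for shRALY and open squares for shControl. In each of the 17 genes the 2 shRALY points lie on one side of the 2 shControl points.

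Both cofactors of the eIF4A helicase fell. EIF4H was at 289 and 296 CPM in shRALY, against 407 and 467 CPM in shControl (log2 -0.58, SE 0.10; edgeR adjusted p = 0.000103). EIF4B was at 311 and 309.7 CPM in shRALY, against 453 and 413 CPM in shControl (log2 -0.48, SE 0.10; edgeR adjusted p = 0.000539). The EIF4B value was -0.47 without shRALY replicate 2 (edgeR adjusted p = 0.052), and 30.6% of its words occur in other genes, mostly pseudogenes. With counts of annotated pseudogenes added, EIF4B stayed called. EIF4A3, the helicase paralog of the exon junction complex, was at 141 and 137 CPM in shRALY and 177 and 165 CPM in shControl (log2 -0.29, SE 0.10; edgeR adjusted p = 0.0285), which did not pass with shRALY replicate 1 or 2 left out (edgeR adjusted p = 0.254 and 0.351 at log2 -0.31 and -0.26). EIF4A2 was at 141 and 125 CPM in shRALY and 159.9 and 129 CPM in shControl, overlapping between groups (log2 -0.12; edgeR adjusted p = 0.46), and passed without shControl replicate 2 (log2 -0.25). EIF4A1, whose level is uncertain, did not pass (log2 0.43; edgeR adjusted p = 0.146).

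At the cap, the inhibitors of eIF4E moved in opposite directions. The 4E-binding proteins hold eIF4E away from eIF4G until mTORC1 phosphorylates them. EIF4EBP1 was at 110.3 and 108 CPM in shRALY, against 81.1 and 86.4 CPM in shControl (log2 0.38, SE 0.11; edgeR adjusted p = 0.00729). EIF4EBP2 was at 48.6 and 48.9 CPM in shRALY, against 74.8 and 70.1 CPM in shControl (log2 -0.57, SE 0.11; edgeR adjusted p = 0.000302). Per length, EIF4EBP2 was at 0.0651 and 0.0671 of EIF4EBP1 in shRALY and at 0.136 and 0.12 in shControl. The EIF4EBP1 call was lost without shRALY replicate 1 (edgeR adjusted p = 0.156 at log2 0.37) or 2 (edgeR adjusted p = 0.109 at log2 0.41). EIF4ENIF1, which carries eIF4E into the nucleus, was at -0.17 and did not pass.

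EIF4E itself was at 37.6 and 33.6 CPM in shRALY and 46.9 and 37.4 CPM in shControl, overlapping between groups (log2 -0.24; edgeR adjusted p = 0.153), and passed without shControl replicate 2 (log2 -0.38). EIF4E2, a cap-binding paralog that represses translation, was at 36.9 and 44.7 CPM in shRALY and 51.1 and 52.5 CPM in shControl (log2 -0.34, SE 0.12; edgeR adjusted p = 0.0303). The EIF4E2 call did not hold with DESeq2 (adjusted p = 0.0851) or without shRALY replicate 1 (edgeR adjusted p = 0.515 at log2 -0.21) or 2 (edgeR adjusted p = 0.0772 at log2 -0.48), and opposite-strand genes cover 24.2% of its exonic bases. EIF4E3 was scarce, at 5.50 to 6.58 CPM over the 4 libraries, with a log2 fold change of -0.02.

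Of the eIF4G scaffolds, EIF4G2 (DAP5), which works without eIF4E, fell, at 1354 and 1333 CPM in shRALY, against 1694 and 1529 CPM in shControl (log2 -0.26, SE 0.09; edgeR adjusted p = 0.0295). That call was lost with shRALY replicate 1 or 2 left out (edgeR adjusted p = 0.292 and 0.343 at log2 -0.27 and -0.24) and without shControl replicate 1 (edgeR adjusted p = 0.0678 at log2 -0.19). EIF4G1, the main scaffold, was at 519 and 540.2 CPM in shRALY and 559.6 and 669 CPM in shControl (log2 -0.21; edgeR adjusted p = 0.109). EIF4G1 passed without shControl replicate 1 (edgeR adjusted p = 0.000712 at log2 -0.34), with library size alone (edgeR adjusted p = 0.0427) and in the fit blocked by replicate number (edgeR adjusted p = 0.0322). EIF4G3 was at 91.3 and 102 CPM in shRALY and 93.7 and 106 CPM in shControl, with overlapping groups.

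At the joining of the subunits, EIF6 rose. It was at 151 and 146 CPM in shRALY, against 109 and 115 CPM in shControl (log2 0.41, SE 0.11; edgeR adjusted p = 0.00352). EIF6 did not pass without shRALY replicate 1 (edgeR adjusted p = 0.118 at log2 0.39) or 2 (edgeR adjusted p = 0.0717 at log2 0.44). EIF5B was at 167 and 179 CPM in shRALY and 199.5 and 169 CPM in shControl, with overlapping groups (log2 -0.09; edgeR adjusted p = 0.558).

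EIF5A and its copy EIF5AL1 fell. EIF5A, the factor that carries hypusine, was at 460.2 and 471 CPM in shRALY, against 593 and 635 CPM in shControl (log2 -0.40, SE 0.10; edgeR adjusted p = 0.00239). EIF5AL1, annotated as protein coding and closely similar to EIF5A, was at 14.3 and 16.1 CPM in shRALY, against 26.0 and 21.6 CPM in shControl (log2 -0.65, SE 0.16; edgeR adjusted p = 0.00194). EIF5A shares 31.7% of its words with other genes, 30.1% with EIF5AL1, so its count is uncertain. EIF5AL1 shares 15.4% of its words, under the 20% limit, but how reads in the shared stretches were assigned is unknown. The EIF5A call was lost without shRALY replicate 1 (edgeR adjusted p = 0.132 at log2 -0.37) or 2 (edgeR adjusted p = 0.095 at log2 -0.41), and the EIF5AL1 call without shRALY replicate 1 (edgeR adjusted p = 0.0697 at log2 -0.55). The paralog EIF5A2, at 12.3 and 14.4 CPM in shRALY and 16.1 and 13.6 CPM in shControl, overlapped between groups.

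In elongation, the 2 eEF1A genes moved in opposite directions. EEF1A2, an isoform found in healthy tissue mainly in muscle, heart and neurons, was at 250.3 and 264 CPM in shRALY, against 174.5 and 174.4 CPM in shControl (log2 0.56, SE 0.10; edgeR adjusted p = 0.00012). EEF1A1, the ubiquitous isoform, was at 5967 and 5557 CPM in shRALY, against 7161 and 6726 CPM in shControl (log2 -0.27, SE 0.09; edgeR adjusted p = 0.0167). Per length, EEF1A2 was at 0.0508 and 0.0577 of EEF1A1 in shRALY and at 0.0295 and 0.0314 in shControl, without overlap. The EEF1A1 call was lost without shRALY replicate 1 (edgeR adjusted p = 0.17 at log2 -0.31) or 2 (edgeR adjusted p = 0.39 at log2 -0.21). Of the words of EEF1A1, 29.3% occur in other genes, most of them in the pseudogene EEF1A1P5. The 39 annotated pseudogenes of EEF1A1 held 2839 and 2170 counts in shRALY and 3060 and 2939 in shControl, 2.48% of the EEF1A1 counts.

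**Figure D4:**
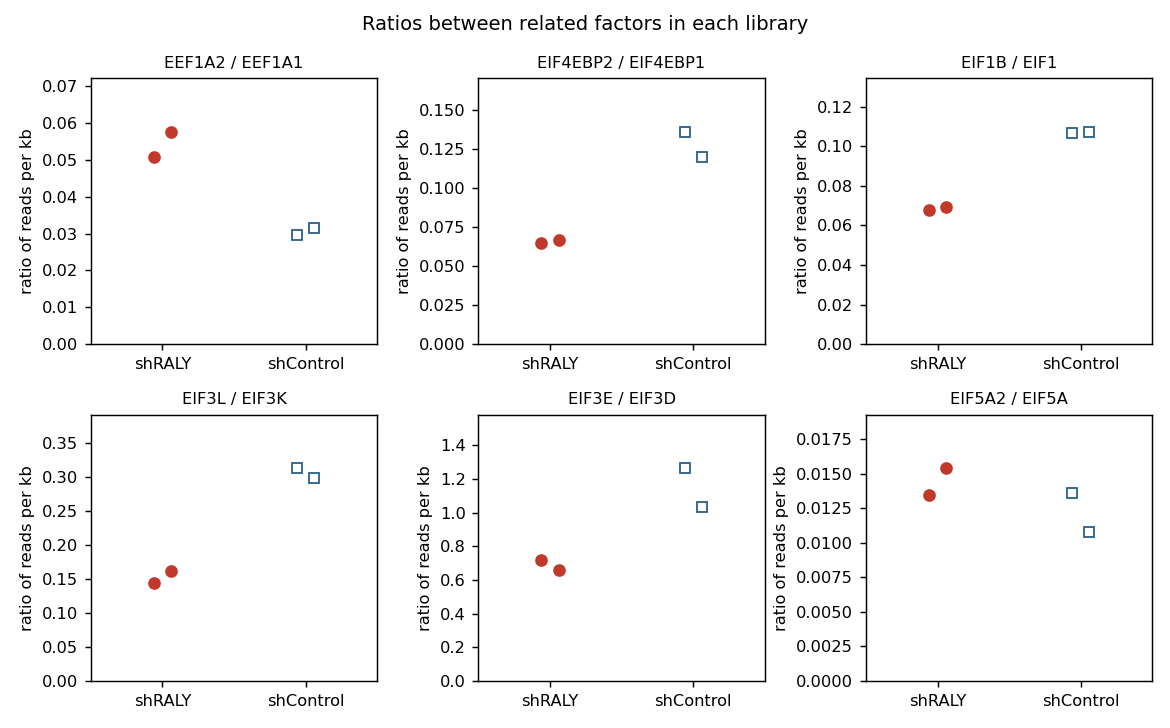
Ratio of reads per kilobase of merged exon between pairs of related factors in each library (vertical axes start at 0), with circles for shRALY and squares for shControl. The groups are apart for EEF1A2 over EEF1A1, EIF4EBP2 over EIF4EBP1, EIF1B over EIF1, EIF3L over EIF3K and EIF3E over EIF3D, and overlap for EIF5A2 over EIF5A. Of the ratios not drawn, EIF4E2 over EIF4E, EIF4E3 over EIF4E and EIF4G1 over EIF4G2 overlap between groups. EIF4G3 over EIF4G1 and EIF4A2 over EIF4A3 do not overlap. No ratio was tested, and the eIF3 pairs were chosen after their values were seen.

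The other 6 tested elongation genes did not pass (0 by edgeR and 0 by DESeq2, with EEF1E1 alone under an unadjusted p of 0.05). EEF2, the translocase, was at 1412 and 1515 CPM in shRALY and 1488 and 1776 CPM in shControl, with overlapping groups (log2 -0.16, 95% interval -0.37 to 0.05; edgeR adjusted p = 0.226). Without shControl replicate 1, EEF2 passed (edgeR adjusted p = 0.00575 at log2 -0.28). EEF2K, the kinase that switches eEF2 off, was at 52.5 and 58.5 CPM in shRALY and 47.3 and 51.2 CPM in shControl (log2 0.17; edgeR adjusted p = 0.265), and EEF2KMT, which methylates eEF2, at 15.8 and 16.3 CPM in shRALY and 20.7 and 19.1 CPM in shControl (log2 -0.31; edgeR adjusted p = 0.111). Of the exchange complex, EEF1B2 was at 339 and 314 CPM in shRALY and 317 and 292 CPM in shControl, with overlapping groups (log2 0.10; edgeR adjusted p = 0.471). EEF1D was at log2 -0.17 and passed without shControl replicate 1 (-0.26). EEF1E1, a small relative found in the aminoacyl-tRNA synthetase complex, was at 9.41 and 9.42 CPM in shRALY and 15.4 and 10.4 CPM in shControl (log2 -0.45; edgeR adjusted p = 0.0732). EEF1E1 passed without shControl replicate 2 (log2 -0.69), with library size alone (-0.51) and with the replicate number as a block (-0.44). EEF1B2, EEF1D, EEF1E1 and EEF2KMT exceed 20% of shared words or overlapped bases and are uncertain.

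The starts of the genes carry features that the name rule did not use. RefSeq promoter windows of 300 bases (250 before and 50 after the start, build GRCh38.p14) were matched for 50 of the 61 genes. Among those without a window were EIF3L and EIF3E, called lower, and EEF1A2 and EIF4EBP1, called higher, so their starts were not read. A TOP-like start, read as a C at the annotated start followed by at least 4 pyrimidines, stood in 13 of the 50, against 5.1% of 27305 genes with a window. Unlike the factors, those 27305 genes were not limited to protein-coding ones, so the shares of this and the other words are not like for like. These 13 did not share a direction: EEF1A1, EIF3F and EIF4B were lower, EIF3M was higher, and EEF1B2, EEF2, EIF2A, EIF2D, EIF2S3, EIF2S3B, EIF3D, EIF3K and EIF4A2 did not pass. None of the 4 calls held in every alternative fit, and the only higher one, EIF3M, was also lost with library size alone. The first 20 bases of these 4 genes are printed with the C and its pyrimidine run in capitals. EEF1A1 lies on the minus strand at chr6:73521013-73521032, and the others on the plus strand at chr11:7987337-7987356 (EIF3F), chr12:53006456-53006475 (EIF4B) and chr11:32583831-32583850 (EIF3M).
EEF1A1, lower: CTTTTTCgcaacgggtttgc
EIF3F, lower: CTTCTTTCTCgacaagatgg
EIF4B, lower: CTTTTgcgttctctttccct
EIF3M, higher: CTTTTCCggtcggcgtggtc

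The word CACGTG, the E-box known as a target of MYC and USF proteins, stood in 12 of the 50 windows, against 8.8% of the same 27305 genes. It reads the same on both strands. It was in 4 of the 10 lower genes with a window (EIF3F, EIF4A3, EIF4B and EIF4H) and in none of the 3 higher ones (EIF1, EIF3M and EIF6), with the other 8 in genes that did not pass or were not tested. The stretches before the start of these 4 lower genes follow with the E-box in capitals, which begins 68, 121, 22 and 199 bases before the start in the order given. They lie at chr11:7987242-7987301 (EIF3F, plus strand), chr17:80147217-80147276 (EIF4A3, minus strand), chr12:53006407-53006455 (EIF4B, plus strand) and chr7:74174130-74174189 (EIF4H, plus strand). A match describes the letters and not binding.
EIF3F: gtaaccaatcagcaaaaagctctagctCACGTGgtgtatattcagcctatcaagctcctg
EIF4A3: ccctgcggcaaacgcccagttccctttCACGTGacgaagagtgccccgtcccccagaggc
EIF4B: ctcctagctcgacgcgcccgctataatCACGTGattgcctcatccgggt
EIF4H: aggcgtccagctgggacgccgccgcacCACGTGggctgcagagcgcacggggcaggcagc
The ETS word CCGGAAG, searched on both strands, stood in 14 of the 50 windows, against 12.2% of genes, with 3 of the 10 lower and 2 of the 3 higher genes among them (EIF3M and EIF6). The ATF4-type word TGATGNAA, also searched on both strands, stood in 1 window, that of EIF4E3, against 4.5% of genes.

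Among genes that control these factors, 3 changed by 2-fold or more while passing the test, all of them among the 9 kinases and phosphatases of eIF2 (33.3%, against 13.6% of all tested genes). The other 4 lists had 0. Of 9 listed kinases and phosphatases of eIF2, 3 were higher and 4 lower, with a median log2 fold change of 0.05. That is 77.8%, against 41.0% of all tested genes and 45.4% of the protein-coding ones. All the partner lists were chosen with earlier results of these data known, so these shares cannot show an excess. PPP1R15A (GADD34), the stress-induced subunit that directs phosphatase to eIF2, was at 159 and 191 CPM in shRALY, against 19.99 and 23.8 CPM in shControl (log2 2.997, SE 0.13; edgeR adjusted p = 2.54e-14). EIF2AK3 (PERK), the kinase of the endoplasmic reticulum, was at 61.9 and 61.5 CPM in shRALY, against 23.1 and 25.9 CPM in shControl (log2 1.33, SE 0.12; edgeR adjusted p = 8.94e-09). EIF2AK2 (PKR), the kinase activated by double-stranded RNA, was at 282 and 308 CPM in shRALY, against 139 and 135 CPM in shControl (log2 1.10, SE 0.10; edgeR adjusted p = 1.22e-08). PPP1CC, a catalytic subunit, was at 152 and 136 CPM in shRALY, against 245 and 196 CPM in shControl (log2 -0.62, SE 0.12; edgeR adjusted p = 0.000174). The kinases EIF2AK1 (log2 -0.39) and EIF2AK4 (-0.38) and the constitutive phosphatase subunit PPP1R15B (-0.42) were the other lower genes of the list. The calls of EIF2AK1, EIF2AK4 and PPP1R15B were not followed one by one through the alternative fits.

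Of 16 listed genes of mTORC1, S6 kinase and cap-binding control, 3 were higher and 5 lower, with a median of -0.07. That is 50%, against 41.0% of all tested genes and 45.4% of the protein-coding ones. PDCD4, which blocks eIF4A, was at 57.4 and 59.5 CPM in shRALY, against 30.2 and 29.2 CPM in shControl (log2 0.98; edgeR adjusted p = 7.12e-07). DDIT4 (REDD1), an inhibitor of mTORC1, was at 219 and 236 CPM in shRALY, against 124 and 136 CPM in shControl (log2 0.81). MKNK2, a kinase of eIF4E, was at 139 and 148 CPM in shRALY, against 75.1 and 100.3 CPM in shControl (log2 0.71). These genes were higher without overlap between groups. RPS6KB1, S6 kinase 1, was at 48.1 and 55.8 CPM in shRALY, against 84.5 and 70.5 CPM in shControl (log2 -0.58), and did not pass with shRALY replicate 1 left out (edgeR adjusted p = 0.0732 at log2 -0.47). The other lower genes of the list were TSC2 (log2 -0.52), RPTOR (-0.46), LARP1 (-0.40) and MLST8 (-0.32), which were not followed one by one through the alternative fits. Opposite-strand genes cover 28.1% of the exonic bases of PDCD4 and 41.2% of those of DDIT4.

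Of 17 listed poly(A)-binding, scanning and recycling partners, 3 were higher and 5 lower, with a median of 0.00. That is 47.1%, against 41.0% of all tested genes and 45.4% of the protein-coding ones. PABPC1, the main cytoplasmic poly(A)-binding protein, was at 810.5 and 807 CPM in shRALY, against 1100 and 1004 CPM in shControl (log2 -0.38; edgeR adjusted p = 0.00297), and did not pass with shRALY replicate 1 or 2 left out (edgeR adjusted p = 0.119 and 0.128 at log2 -0.38 and -0.37). PABPC4 was lower, at 106 and 111 CPM in shRALY, against 164.3 and 163.6 CPM in shControl (log2 -0.60). PABPC1L was higher, at 45.5 and 42.1 CPM in shRALY, against 23.0 and 26.7 CPM in shControl (log2 0.82). SBDS, which helps to release eIF6 from the large subunit, was at 91.8 and 83.3 CPM in shRALY, against 62.9 and 51.0 CPM in shControl (log2 0.62; edgeR adjusted p = 0.000259).

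Of 13 enzymes that modify elongation factors or eIF5A, 1 was higher and 2 lower, 23.1% against 41.0% of all tested genes. DPH3, of the pathway that makes diphthamide on eEF2, was higher, at 48.6 and 55.6 CPM in shRALY, against 35.5 and 29 CPM in shControl (log2 0.69). DPH2, of the same pathway, was lower, at 27.8 and 32.4 CPM in shRALY, against 37.7 and 40.04 CPM in shControl (log2 -0.37). METTL13, which methylates eEF1A, was lower, at 74.2 and 69.8 CPM in shRALY, against 84.5 and 91.6 CPM in shControl (log2 -0.29). The DPH2 and METTL13 calls were lost without shRALY replicate 1 (edgeR adjusted p = 0.415 and 0.239 at log2 -0.26 and -0.33) or 2 (edgeR adjusted p = 0.0907 and 0.425 at log2 -0.47 and -0.24) and with DESeq2 (adjusted p = 0.086 and 0.0789). For METTL13 the edgeR adjusted p also reached 0.0638 without shControl replicate 2, and it did not pass with no filter on low counts (edgeR adjusted p = 0.0613). Of 9 mitochondrial translation factors, 11.1% were called, against 41.0% of all tested genes and 45.4% of the protein-coding ones. MRRF, the recycling factor, was lower, at 40.3 and 41.5 CPM in shRALY, against 54.7 and 53.5 CPM in shControl (log2 -0.40), but did not pass with shRALY replicate 1 or 2 left out (edgeR adjusted p = 0.18 and 0.135 at log2 -0.38 and -0.41), and none was higher. The count of higher mitochondrial factors was 0 by edgeR and by DESeq2, and 1 at an unadjusted edgeR p under 0.05, GFM2 (edgeR adjusted p = 0.0819 at log2 0.26), which was named after its value was seen. TUFM, the mitochondrial counterpart of eEF1A, was at 264 and 251 CPM in shRALY and 277 and 297 CPM in shControl (log2 -0.16). It did not pass with all 4 libraries, but passed without shControl replicate 1 (edgeR adjusted p = 0.0403 at log2 -0.21).

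**Figure D5:**
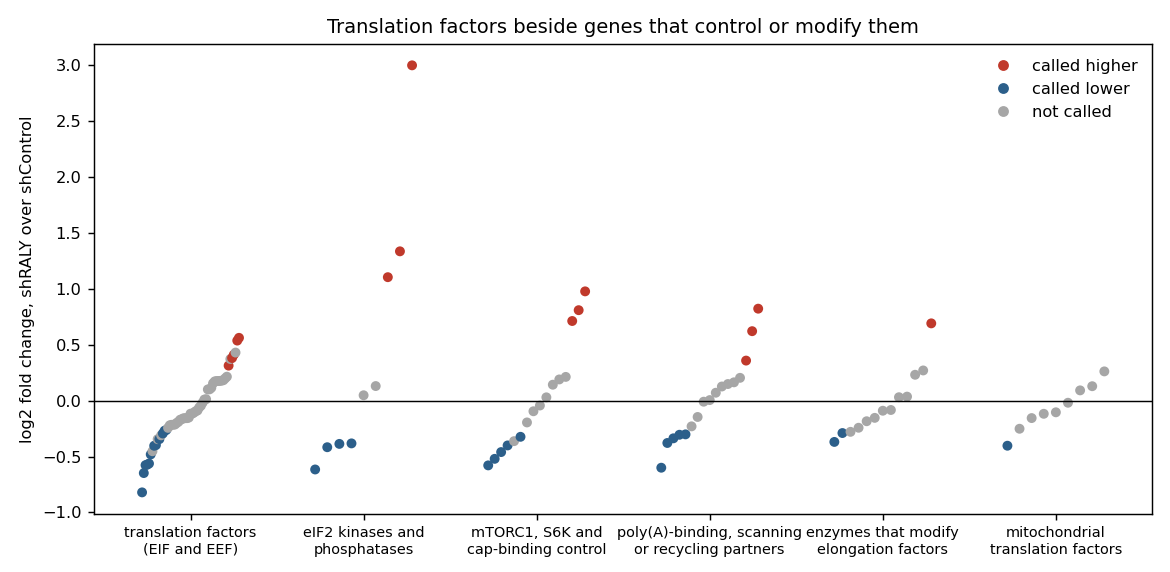
The log2 fold change (shRALY over shControl, vertical axis) of each tested gene, 1 dot per gene, for the translation factors and 5 lists of genes that control, assist or parallel them. The translation factors lie between -0.82 and 0.56, while PPP1R15A, EIF2AK3 and EIF2AK2 reach 2.997, 1.33 and 1.10.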

How the data were processed

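The deposited values are whole-number read counts per gene, 1 file per library, made by the authors. The submitters' processing notes name HISAT2 2.0.5, featureCounts 1.5.0-p3, DESeq2 1.20.0 and build hg38, and the labels' protocols describe poly(A)-selected libraries. For annotation release, strand setting and multi-mapping reads nothing is given in the sources used here. All 58735 gene IDs matched GENCODE 29, which gave names and exons. Genes passing filterByExpr (minimum count 10, minimum total 15) were tested with edgeR 4.0.16 (R 4.3.3): TMM scaling, robust quasi-likelihood test, Benjamini-Hochberg adjustment over 15912 genes, threshold 0.05. Errors are standard errors from that fit. TPM used merged exon lengths. A factor is called uncertain where over 20% of its 50-base words or exonic bases are shared with other genes. The floor is 3 counts, and limits cover counting error only.

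On simulated data of 13881 genes, edgeR recovered 50.7%, 94.0% and 95.5% of genes changed by 0.5, 1 and 2 on the log2 scale, so small changes can be missed. Only 67, 67 and 66 genes were changed, and all genes were given the same spread. The real data had far more called genes, so these shares need not hold for them. Alternatives were DESeq2 1.42.0, other scalings and filters, a replicate block, each library left out, protein-coding genes alone, and pseudogene or copy counts added. Every factor is accounted for; per-library values are given for the 12 called factors with the largest changes, the 8 most abundant and the paralogs, and for partner genes the up to 4 called with the lowest adjusted p per list. The members, gene lists and tests were chosen with earlier results of these data known.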

Additional observations from a re-analysis of the deposited data

How the results depend on the processing

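Of the 17 called factors, 6 kept direction and call in all alternatives run, and none of the 17 changed sign. RALY stayed lower, with log2 values between -1.70 and -1.57. Leaving out 1 library at a time gave 3 to 10 higher and 5 to 19 lower translation factors, 2 to 9 higher and 5 to 17 lower initiation genes, 0 to 3 lower elongation genes, 3 to 18 lower partner genes, and over all genes 2040 to 3559 higher and 1897 to 3499 lower. A fit with a left-out library assumes that the lone library of its group varies like the others. Elongation genes called lower numbered 2 with library size alone, and 2 with the replicate block, against 1. The replicate numbers are shared labels only: with 2 pairs, deviations of same-numbered libraries correlated at 0.099 across 15912 genes, which does not establish a pairing. Under the block 14 factors were lower. Signs changed in 10 factors that had not passed, EIF3C and EIF3CL among them, and the cause was not tested. Leaving out 1 library gave log2 values of -0.13 to 0.024 for EIF2B3, -0.14 to 0.061 for EIF4G3, -0.080 to 0.11 for EIF3G, -0.030 to 0.29 for EIF2S1, -0.16 to 0.23 for EIF2A, -0.25 to 0.044 for EIF4A2, -0.19 to 0.033 for EIF5B, -0.15 to 0.11 for EIF4E3, -1.02 to 0.72 for EIF3C and -0.71 to 1.01 for EIF3CL. With library size alone EIF3G was at -0.046 and EIF2A at -0.043, and with the replicate block EIF3C was at -0.065. Library size alone moved the median log2 fold change of all genes to -0.07, against -0.01, and that of the factors to -0.17, against -0.12.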
